A study of Mus musculus with 12 samples.

Results

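The 10 genes described here set the pace of the first gap phase of the cell cycle (G1) or help cells leave the cycle: the D cyclins Ccnd1, Ccnd2 and Ccnd3, the cyclin-dependent kinases Cdk4 and Cdk6, the kinase inhibitors Cdkn1a, Cdkn1b, Cdkn1c and Cdkn2c, and Rb1. They were chosen by name as a pathway and matched to their Ensembl identifiers. All 10 were found among the 25674 genes of the deposited count table. RNA was measured in spiral ganglion neurons, which relay sound information from the cochlea, sorted from E14.5 mouse embryos. The comparison asks how these genes differ when the LIM homeodomain factor ISL1 is deleted in such neurons.

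Each of the 12 libraries held 100 cells positive for the red reporter tdTomato, taken, per the labels, from both inner ears of a single embryo of either sex on a mixed C57BL/6/sv129 background. The 6 control embryos were Neurod1Cre; Rosa26tdTOM. The 6 mutant embryos, called Isl1CKO below, were Neurod1Cre;Isl1loxP/loxP;Rosa26tdTOM, so both groups carried the Cre driver and the reporter. The driver is a transgene built on a bacterial artificial chromosome that holds the Neurod1 gene, and cells that have never expressed it keep an intact Isl1. The samples are technical replicates by a label tag and biological replicates by the design text. They are treated as separate embryos here, and if they were not, p-values would measure only technical spread. The labels also mention 4 litters, and litter was not part of the fit.

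D cyclins bind CDK4 or CDK6, and the complex phosphorylates the retinoblastoma protein RB1, which otherwise holds back the E2F factors that switch on genes for DNA replication. The INK4 inhibitors, Cdkn2c among them, block CDK4 and CDK6, whereas the CIP/KIP inhibitors Cdkn1a, Cdkn1b and Cdkn1c (p21, p27 and p57) act on several cyclin-kinase pairs. Neuroblasts of the inner ear stop dividing as they become neurons, and CIP/KIP inhibitors are known for their part in that exit. D cyclins and CDK inhibitors are also expressed in cells that do not divide.

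Total counts ran from 11895603 to 13857480 per library, and levels are given as CPM, the usual read count normalised to library size, after TMM scaling. All 15 neuronal markers checked were present, led by Tubb3. Isl1 itself had 1538 ± 217 CPM in controls and 1391 ± 184 CPM in Isl1CKO libraries (SD, n = 6; edgeR adjusted p = 0.460), and a whole-gene count is blind to loss of the floxed segment. The genotype therefore rests on the labels. Isl1CKO 2, 3 and 5 carried both Xist and Y-linked transcripts, while each of the other libraries carried either the one or the other. That goes against the label of a single embryo for these 3 libraries, and results were recomputed without them.

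Of the 10 genes, 9 passed the filter on low counts and 2 of these were higher in Isl1CKO libraries: Ccnd1 and Cdkn1a. None was lower. Of the 14813 genes tested, 5.01% were higher, 5.19% were lower and 10.2% were called in either direction. A call here means a Benjamini-Hochberg adjusted p below 0.05 from the quasi-likelihood test of edgeR. The median log2 fold change of the 9 was 0.38, against 0.0045 over every gene tested. Without Isl1CKO 2, 3 and 5 only Ccnd1 was called. In that setting 767 of 16222 genes tested were called, against 1511 of 14813 with all libraries.

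**Figure D1:**
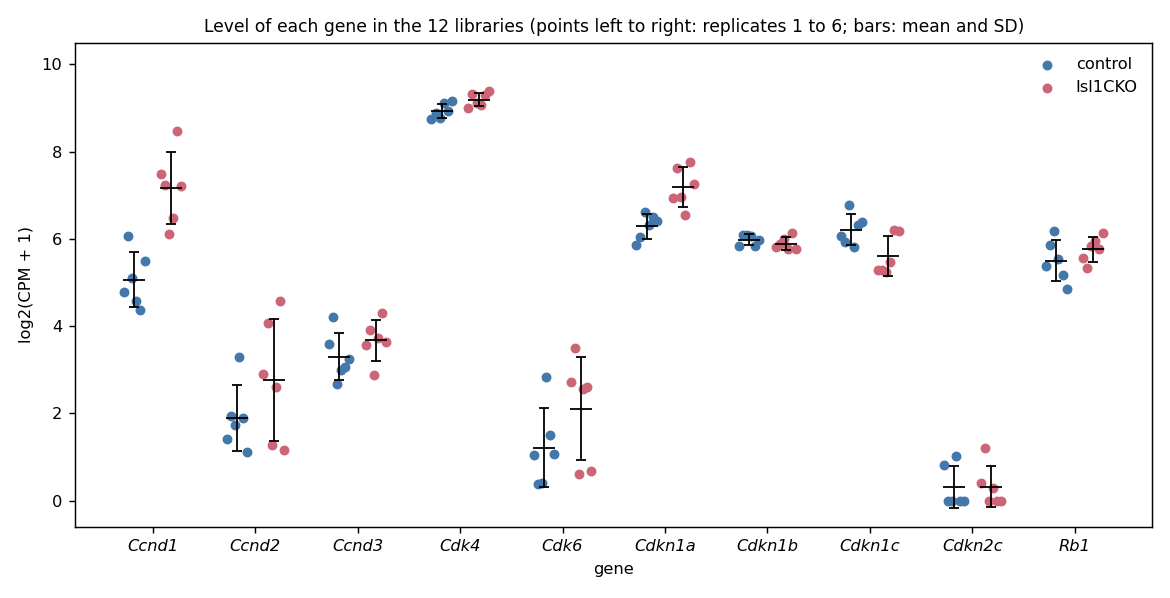
Level of each gene as log2(CPM + 1) in the 6 control (blue) and 6 Isl1CKO (red) libraries, 1 point per library, with the mean and SD of each group in black. The groups are apart for Ccnd1, nearly so for Cdkn1a, and overlap for the other genes.

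Among the D cyclins, Ccnd1 rose. Cyclin D1 is the D cyclin that couples growth factor signals to the cycle in many tissues. Ccnd1 (ENSMUSG00000070348, minus strand of chromosome 7, 144929931 to 144939925) had a lowest, median and highest level of 19.8, 30.0 and 65.8 CPM in controls and of 68.7, 149 and 354 CPM in Isl1CKO libraries. All 6 Isl1CKO libraries lay above all 6 controls, although Isl1CKO 3 exceeded control 2 by little. Of tested genes, 3.13% were separated this way with Isl1CKO higher and 6.78% in either direction. The mean was 35.4 ± 17.3 CPM in controls and 164 ± 102 CPM in Isl1CKO libraries (SD, n = 6). The fitted log2 fold change was 2.21 (standard error 0.39, 95% interval 1.38 to 3.04, edgeR adjusted p = 0.00174). Without Isl1CKO 2, 3 and 5 it was 1.95 (edgeR adjusted p = 0.00717). In a bulk sample, more cells with the transcript and more transcript per cell cannot be told apart.

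The exons of Ccnd1 share 1100 bases with LTO1 on the opposite strand, and whether counting used strand is not given in the sources used here. LTO1 averaged 46.3 CPM in controls and 49.2 CPM in Isl1CKO libraries (edgeR adjusted p = 0.771), so the overlapping gene showed no such difference.

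Ccnd2 and Ccnd3, whose products can stand in for cyclin D1, were scarce and were not called. Ccnd2 (chromosome 6, 127125162 to 127152193) ranged from 1.17 to 8.82 CPM in controls and from 1.22 to 23.0 CPM in Isl1CKO libraries, with medians of 2.52 and 5.79 CPM. Only Isl1CKO 2 and 5 exceeded every control. Its log2 fold change was 1.44 with a 95% interval of -0.04 to 2.92 (edgeR adjusted p = 0.229), so a large rise and no change both lie within the error. Ccnd3 (chromosome 17, 47505051 to 47599691) averaged 9.46 ± 4.33 CPM in controls and 12.3 ± 4.01 CPM in Isl1CKO libraries (SD, n = 6), and its log2 fold change was 0.38 (95% interval -0.29 to 1.05, edgeR adjusted p = 0.518).

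Per kilobase of exon, Ccnd1 was the most abundant D cyclin in every library. Its share of the 3 D cyclins, summed per kilobase, was 73.6% to 89.5% in controls and 90.6% to 95.6% in Isl1CKO libraries. The ranges did not overlap, which is given as a description with no test.

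Of the kinases, Cdk4 was by far the more abundant. Cdk4 (ENSMUSG00000006728, plus strand of chromosome 10, 127063534 to 127067920) had a lowest, median and highest level of 431, 478 and 571 CPM in controls and of 509, 591 and 666 CPM in Isl1CKO libraries. The groups overlapped, with 3 Isl1CKO libraries above every control. The means were 491 ± 58.0 and 589 ± 63.2 CPM (SD, n = 6). The fitted log2 fold change of 0.26 (95% interval 0.07 to 0.46) missed the threshold after adjustment (edgeR adjusted p = 0.0835). The DESeq2 Wald test put it just past (adjusted p = 0.0497). Tspan31, which shares 641 exonic bases with Cdk4 on the opposite strand, averaged 118 and 128 CPM (edgeR adjusted p = 0.549).

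The promoter of Cdk4, the most abundant of the 10 genes, is shown because it holds several copies of the E-box, the element recognised by MYC and related factors. RefSeq promoters (GRCm38.p6, the build named in the submitters' processing notes) were found for 6 of the 10 genes, and the 250 bases before each start site were searched on both strands. Ccnd1, Ccnd2, Cdkn1c and Rb1 were not matched. Capitals mark E-boxes (CACGTG) and a GC box (GGGCGG, here read on the opposite strand) in the Cdk4 sequence, chr10:127063285-127063534, plus strand.
Cdk4: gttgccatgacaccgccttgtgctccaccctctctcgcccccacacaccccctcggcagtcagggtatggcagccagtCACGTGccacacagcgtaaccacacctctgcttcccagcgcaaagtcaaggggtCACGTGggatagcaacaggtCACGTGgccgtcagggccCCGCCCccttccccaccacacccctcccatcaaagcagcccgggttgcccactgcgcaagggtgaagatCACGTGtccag
The 4 E-boxes begin at -172, -118, -98 and -11 from the start site. An E-box was present in 6.02% of 32817 RefSeq promoter windows of this length, and a GC box in 32.7%. A match of letters is a description and does not show that a factor binds.

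Cdk6, the partner kinase with overlapping substrates, was near the detection limit in several libraries. Cdk6 (chromosome 5, 3341485 to 3531008) ranged from 0.296 to 6.15 CPM in controls and from 0.527 to 10.3 CPM in Isl1CKO libraries, where 3 counts correspond to 0.219 to 0.250 CPM. Only Isl1CKO 2 exceeded every control. Its log2 fold change of 1.32 had a 95% interval of -0.40 to 3.03 (edgeR adjusted p = 0.359). Cdk4 made up at least 99.6% of the summed per-kilobase level of both kinases in every library.

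Among the CIP/KIP inhibitors, Cdkn1a rose, Cdkn1b stayed within a narrow interval around no change, and Cdkn1c was not called. Cdkn1a encodes p21, which arrests the cycle and is a well known target of p53. Cdkn1a (ENSMUSG00000023067, plus strand of chromosome 17, 29090976 to 29100727) had a lowest, median and highest level of 57.2, 81.1 and 96.5 CPM in controls and of 93.3, 137 and 217 CPM in Isl1CKO libraries. In 5 of 6 Isl1CKO libraries it exceeded every control, and Isl1CKO 4 lay just under control 3. The means were 78.4 ± 15.0 and 151 ± 48.0 CPM (SD, n = 6). The fitted log2 fold change was 0.94 (standard error 0.19, 95% interval 0.53 to 1.36, edgeR adjusted p = 0.00526). Without Isl1CKO 2, 3 and 5 it was 0.64 and the call was lost (edgeR adjusted p = 0.0842). Fewer genes were called in that setting over all genes tested, as given above. The small gene AC167363.2, which overlaps Cdkn1a on the opposite strand, stayed under 1 CPM in every library.

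The windows before both Cdkn1a start sites are shown because the upstream one holds the core letters of a p53 response element. The core searched was CATG, then 6 bases of any kind, then CATG, a pattern added after the sequence was seen. It reads the same on both strands and was present in 0.488% of the 32817 windows. Capitals mark that core in the upstream window (chr17:29090729-29090978) and GC boxes in the downstream window (chr17:29093519-29093768), both on the plus strand.
Cdkn1a upstream start: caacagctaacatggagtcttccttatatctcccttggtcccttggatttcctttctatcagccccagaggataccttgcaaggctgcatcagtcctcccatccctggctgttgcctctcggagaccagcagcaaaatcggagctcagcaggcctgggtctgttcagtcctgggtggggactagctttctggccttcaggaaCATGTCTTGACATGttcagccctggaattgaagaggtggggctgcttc
Cdkn1a downstream start: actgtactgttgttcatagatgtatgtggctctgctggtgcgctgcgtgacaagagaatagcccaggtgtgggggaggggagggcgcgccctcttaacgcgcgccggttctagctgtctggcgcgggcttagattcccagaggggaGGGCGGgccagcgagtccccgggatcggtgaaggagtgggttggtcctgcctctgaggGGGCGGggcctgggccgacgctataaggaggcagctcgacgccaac
The TATA box (TATAAA), the cyclic AMP response element (TGACGTCA) and the homeodomain core TAATTA were also searched. They were present in 12.4%, 1.55% and 4.85% of the windows and matched none of the 3 sequences printed. Gene-level counts cannot tell which start site was used.

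Cdkn1b (ENSMUSG00000003031, chromosome 6, 134920401 to 134925513), which encodes p27, varied least of the 10 genes in relative terms. Its level was 55.8 to 67.0 CPM in controls and 53.3 to 68.9 CPM in Isl1CKO libraries, with means of 62.3 ± 5.26 and 58.8 ± 6.10 CPM (SD, n = 6). The log2 fold change was -0.09 with a 95% interval of -0.30 to 0.13 (edgeR adjusted p = 0.669). The upper end of the interval lies below the change fitted for Cdkn1a.

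Cdkn1c (ENSMUSG00000037664, minus strand of chromosome 7, 143458339 to 143461050), which encodes p57, had a lowest, median and highest level of 55.4, 72.3 and 110 CPM in controls and of 36.8, 40.7 and 73.2 CPM in Isl1CKO libraries. Isl1CKO 1 to 4 lay below every control, while Isl1CKO 5 and 6 lay within the control range. The log2 fold change was -0.58 with a 95% interval of -1.05 to -0.12, and it missed the threshold after adjustment (edgeR adjusted p = 0.111). In the annotation Gm44732 shares 625 of its exonic bases on the opposite strand, which leaves its counts uncertain.

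Per kilobase, the make-up of the CIP/KIP transcripts differed between the groups. The share of Cdkn1a was 26.6% to 34.6% in controls and 44.4% to 64.0% in Isl1CKO libraries. The share of Cdkn1c was 42.6% to 56.2% in controls and 21.3% to 39.3% in Isl1CKO libraries. Cdkn1c was thus the largest of the 3 in every control library and Cdkn1a in every Isl1CKO library, a description with no test.

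**Figure D2:**
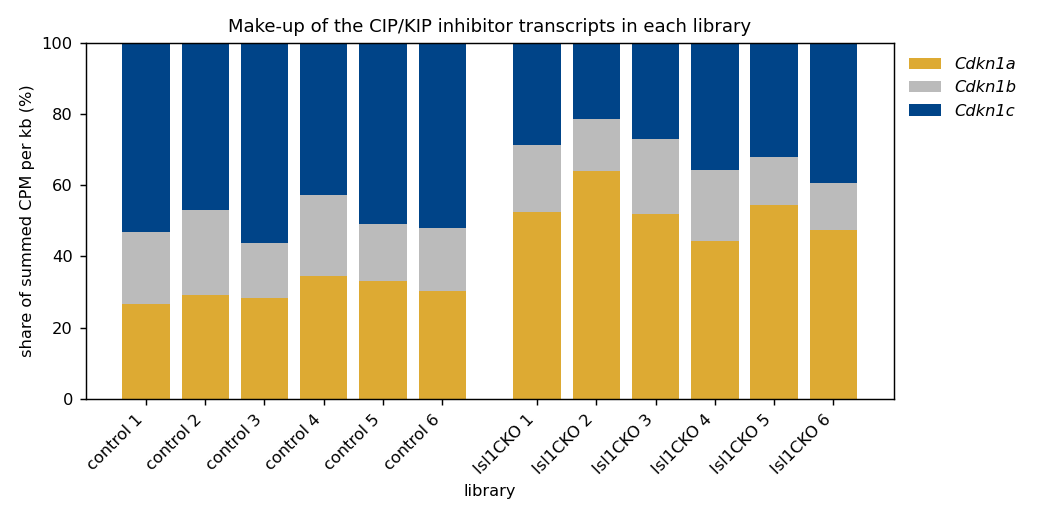
Share of Cdkn1a, Cdkn1b and Cdkn1c in the sum of their CPM per kilobase of exon, in percent, for each library. Cdkn1a holds at most 34.6% in the controls and at least 44.4% in the Isl1CKO libraries.

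The INK4 inhibitor Cdkn2c (chromosome 4, 109660876 to 109667189) encodes p18 and was all but undetected. It had 0 counts in 7 libraries and at most 3 in 8, did not pass the filter and was not tested. Its highest level was 1.04 CPM in controls and 1.32 CPM in Isl1CKO 2. Rb1 (ENSMUSG00000022105, minus strand of chromosome 14, 73183673 to 73325822) was not called, at 27.9 to 71.4 CPM in controls and 39.2 to 69.2 CPM in Isl1CKO libraries. Its log2 fold change of 0.23 had a 95% interval of -0.22 to 0.67 (edgeR adjusted p = 0.567). Lpar6, a receptor gene that lies within Rb1 on the opposite strand and shares 408 exonic bases with it, did rise, from 25.5 to 45.4 CPM (log2 fold change 0.83, edgeR adjusted p = 0.00978). Rcbtb2, which shares 488 exonic bases with Rb1 on the opposite strand, averaged 88.8 and 91.2 CPM (edgeR adjusted p = 0.907).

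Ordered by level per kilobase of exon, the controls ran from Cdk4 at 151 ± 17.8 CPM per kilobase through Cdkn1c at 36.9 ± 9.74, Cdkn1a at 22.1 ± 4.22 and Cdkn1b at 13.7 ± 1.16 to Rb1 at 7.71 ± 2.61 and Ccnd1 at 7.52 ± 3.67 (SD, n = 6). Rb1 and Ccnd1 did not differ beyond their spread. Ccnd3, Ccnd2, Cdk6 and Cdkn2c followed at 1.08, 0.345, 0.128 and 0.111 CPM per kilobase, where the ranges of neighbours overlapped. In Isl1CKO libraries Cdkn1a stood at 42.4 ± 13.5 and Ccnd1 at 34.9 ± 21.6 CPM per kilobase (SD, n = 6), next after Cdk4 and overlapping each other and Cdkn1c at 24.6 ± 8.56. Ccnd1 moved from the 60.8 percentile of tested genes in controls to the 88.8 percentile. Cdk4 was at the 98.1 and 98.7 percentiles.

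The spread between libraries of a group also differed among the 10 genes. The coefficient of variation was 11.8% in controls and 10.7% in Isl1CKO libraries for Cdk4, and 8.44% and 10.4% for Cdkn1b. It was 48.8% and 61.7% for Ccnd1, 86.1% and 98.8% for Ccnd2, and 123% and 81.1% for Cdk6.

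**Figure D3:**
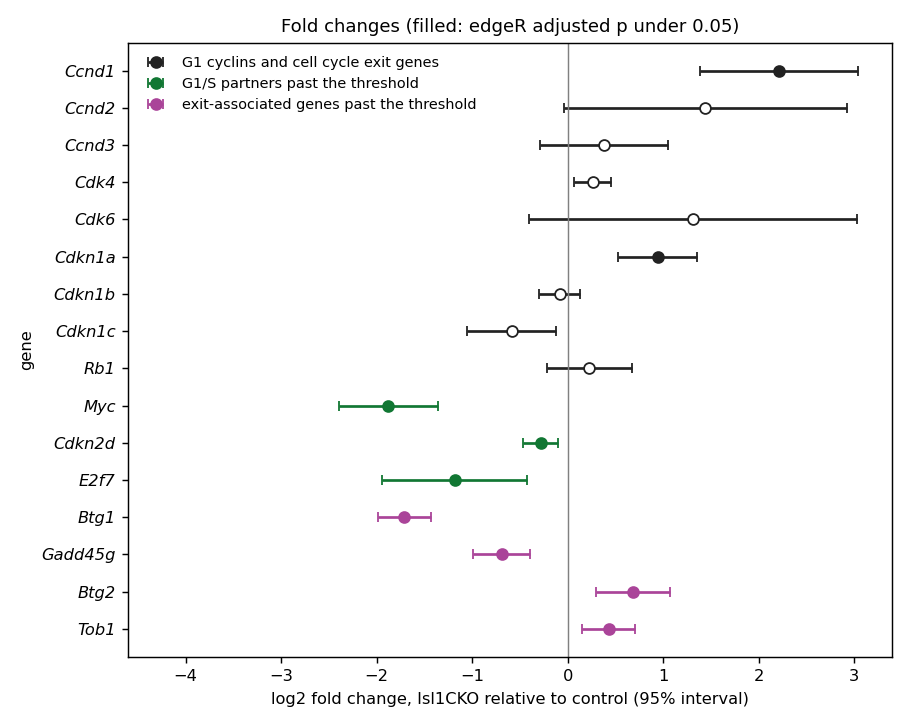
Log2 fold change of Isl1CKO relative to control libraries with its 95% interval for the 9 tested genes (black) and for the called genes of the 2 neighbouring lists (green, G1/S partners; purple, exit-associated genes). Filled points passed an adjusted p of 0.05 in edgeR, and Ccnd1 and Cdkn1a are the filled black points.

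The other genes of the G1 to S transition gave 3 lower and 0 higher calls among 27 tested of 30 listed, or 11.1%, against 10.2% of all genes. Their median log2 fold change was 0.19. Myc, which encodes a growth-promoting transcription factor, fell from 89.5 ± 14.9 to 24.4 ± 8.41 CPM (SD, n = 6; log2 fold change -1.88, edgeR adjusted p = 1.23e-04). All 6 Isl1CKO libraries lay below all 6 controls. Its relative Mycn, named after its values were seen, was at 216 and 212 CPM (edgeR adjusted p = 0.925).

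E2f7, a repressive E2F, fell from 6.91 to 3.04 CPM (log2 fold change -1.18, edgeR adjusted p = 0.0476). Cdkn2d, the INK4 inhibitor p19, fell from 260 to 213 CPM (log2 fold change -0.28, edgeR adjusted p = 0.0450) and was far more abundant than Cdkn2c. Both calls were close to the threshold. Myc was called in all 23 alternatives, Cdkn2d in 8 and E2f7 in 6, and only Myc was called without control 1, 3, 4 or 6 or without Isl1CKO 2, 4, 5 or 6.

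Of 18 genes associated with cell cycle exit, 15 were tested, 2 fell and 2 rose, or 26.7% of those tested against 10.2% of all genes, with a median log2 fold change of 0.18. Btg1, which encodes an antiproliferative protein, fell from 105 ± 15.7 to 32.3 ± 4.81 CPM (SD, n = 6) with no overlap between the groups (log2 fold change -1.71, edgeR adjusted p = 7.39e-07). Its relative Btg2 rose from 166 ± 43.6 to 266 ± 52.2 CPM (SD, n = 6; log2 fold change 0.68, edgeR adjusted p = 0.0244). Gadd45g, a growth arrest gene, fell from 164 to 102 CPM (log2 fold change -0.69, edgeR adjusted p = 0.00446). Tob1, of the same family as the Btg genes, rose from 86.9 to 117 CPM (log2 fold change 0.43, edgeR adjusted p = 0.0496). Btg1 and Gadd45g were called in all 23 alternatives, Btg2 in 18 and Tob1 in 6. Only Btg1 and Gadd45g were called when Isl1CKO 2, 5 or 6 was left out, and Btg2 also lost its call without control 3 and without Isl1CKO 2, 3 and 5. Ccng1, of the same list and named after its values were seen, was at 183 and 186 CPM (edgeR adjusted p = 0.923). The activity of p53, of which Cdkn1a is a known target, was not tested. Gadd45a, of the same list and not called, was at 22.4 and 36.2 CPM (edgeR adjusted p = 0.104). In 5 Isl1CKO libraries Gadd45a exceeded every control, and in 1 it lay below every control.

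Genes of S phase and mitosis, which act after the G1 genes, gave 0 calls among 39 tested in edgeR, against 10.2% of all genes. An unadjusted p under 0.05 was reached by 5 of them, or 12.8%, against 23.3% of all genes, while DESeq2 called 3 and limma-voom 0. Their median log2 fold change was 0.94, with a range of -0.29 to 1.75, and 34 of the 39 lay above 0. The most abundant, both under that median, were Rrm1, at 0.47 (edgeR adjusted p = 0.0793), and Mcm7, at 0.12 (edgeR adjusted p = 0.537).

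The summed level of these S phase and mitosis genes varied among the Isl1CKO libraries, and its part in the level of Ccnd1 was not tested beyond the covariate fit below. It was 1213, 1490 and 1020 CPM in Isl1CKO 1, 2 and 5, where Ccnd1 was 177, 151 and 354 CPM. It was 549 and 532 CPM in Isl1CKO 3 and 4, inside the control range of 428 to 1012 CPM, and Ccnd1 was 68.7 and 88.4 CPM there, where the highest control had 65.8 CPM. In Isl1CKO 6 the sum was 694 CPM and Ccnd1 was 147 CPM. Control 6 had the highest sum of the controls, 1012 CPM, with 44.2 CPM of Ccnd1. Control 2, with the most Ccnd1 of the controls, had a sum of 553 CPM. With the mean level of the S phase and mitosis list as a covariate, a setting chosen after seeing the data, Ccnd1 had a log2 fold change of 1.84 and Cdkn1a of 0.77 (edgeR adjusted p of 0.00841 and 0.0192).

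**Figure D4:**
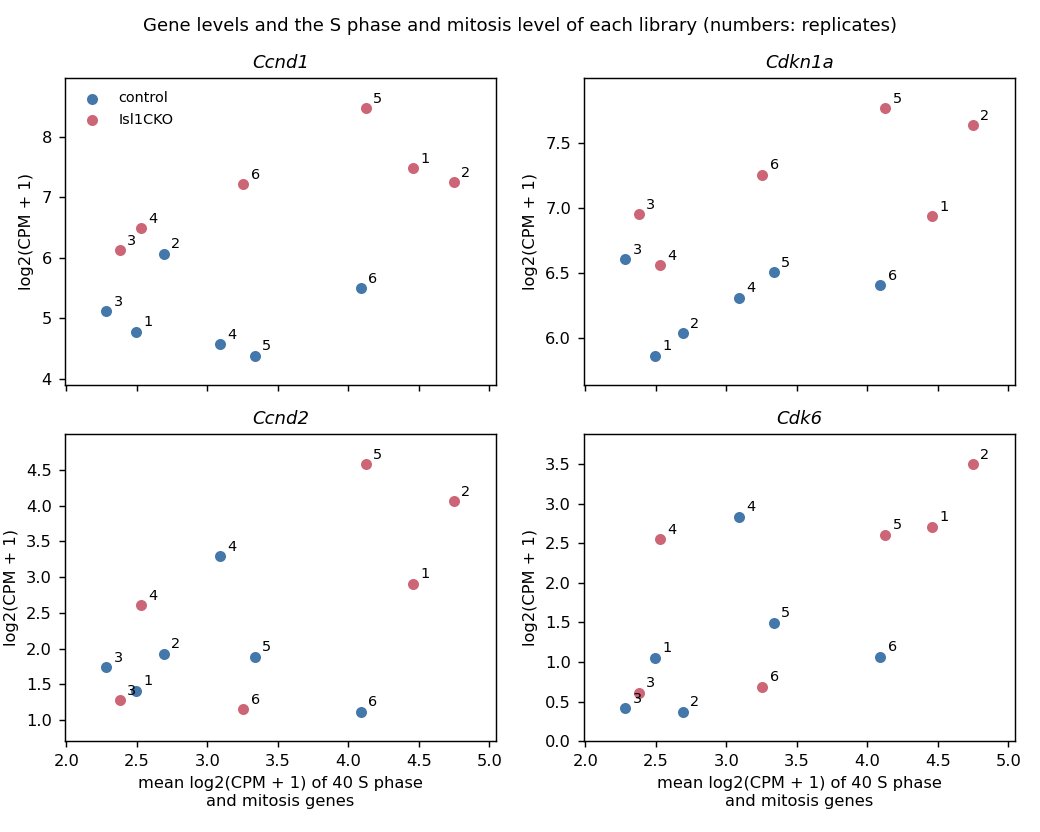
Level of Ccnd1, Cdkn1a, Ccnd2 and Cdk6 as log2(CPM + 1) against the mean log2(CPM + 1) of 40 S phase and mitosis genes, 1 point per library, numbered by replicate (blue, control; red, Isl1CKO). Isl1CKO 1, 2 and 5 have the highest S phase and mitosis levels and high Ccnd1. Isl1CKO 3 and 4, at the low end, have the least Ccnd1 of the Isl1CKO libraries. Control 6 lies close to Isl1CKO 5, the library with the most Ccnd1, in S phase and mitosis level and has less Ccnd1. The part of this level in Ccnd1 was not tested beyond the covariate fit.

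Markers of other cells varied between libraries too. All 14 Schwann cell and satellite glia markers exceeded 3 counts in at least 1 library, and 0 of the 9 tested were called. Their summed level was 40.8 to 248 CPM in controls and 38.9 to 532 CPM in Isl1CKO libraries, led by Fabp7. It was highest in Isl1CKO 2 and 5, the libraries with the most Ccnd2, and Sox10, which defines these glia, was at 13.6 and 9.48 CPM there. The 14 macrophage markers summed to 2.07 to 459 CPM in controls and 1.60 to 827 CPM in Isl1CKO libraries, and 0 of 10 tested were called.

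Other marker lists differed between the groups, with mesenchyme markers higher in Isl1CKO libraries and neuroblast and hair cell markers lower. Among all genes tested, 5.01% were higher and 5.19% lower. The 12 mesenchyme markers summed to 40.1 to 88.3 CPM in controls and 94.8 to 144 CPM in Isl1CKO libraries, with 3 of 5 tested higher. The 11 neuroblast and otic progenitor markers summed to 2076 to 2404 CPM in controls and 989 to 1335 CPM in Isl1CKO libraries, with 2 of 8 tested lower. The hair and supporting cell markers summed to 56.2 to 113 CPM in controls and 25.2 to 48.2 CPM in Isl1CKO libraries, with 2 of 6 tested lower. None of these 3 ranges overlapped, and their part in the changes of Ccnd1 and Cdkn1a was not tested. Of the 15 neuronal markers, 5 were lower and 2 higher, against 10.2% of all genes in either direction. The endothelial markers Cldn5, Emcn and Tie1 had at most 3 counts in every library.

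With the Schwann cell and macrophage marker levels as covariates, the log2 fold change was 2.43 for Ccnd1 and 1.06 for Cdkn1a (edgeR adjusted p of 0.00379 and 0.00118). For the scarce genes it moved further, to 0.19 for Ccnd2 and to -0.54 for Cdk6 (edgeR adjusted p of 0.914 and 0.671). Isl1CKO 3 and 6 held the least of the Schwann cell markers, at 38.9 and 40.7 CPM in sum, and had 68.7 and 147 CPM of Ccnd1.

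The genes whose level followed Ccnd1 most closely over the 12 libraries were Abcd2, Efna5 and Mycl. After each gene was centred on its own mean of log2(CPM + 1), they differed from Ccnd1 by a root mean square of 0.57, 0.58 and 0.61, where Ccnd1 itself varied by 1.25 and 9911 genes were compared. Abcd2 encodes a peroxisomal fatty acid transporter, Efna5 an ephrin ligand and Mycl a transcription factor of the MYC family. Abcd2 went from 44.2 to 189 CPM and Mycl from 31.7 to 84.5 CPM. Nearness was computed over both groups together, so it picks genes with a group difference like that of Ccnd1 and gives no separate support. The same holds for Cdkn1a. Nearest to Cdkn1a were Abracl, C530008M17Rik and Lmna, the gene of lamin A and C, each at a root mean square difference of 0.23, where Cdkn1a itself varied by 0.57.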

How the data were processed

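RNA was read from 12 libraries of sorted neurons, 6 per genotype. The authors deposited whole-number counts per Ensembl gene, not normalized. The submitters' processing notes name cutadapt 1.18, Bowtie 1.2.2, STAR 2.7.0c, featureCounts and the build GRCm38.p6. The annotation and strand setting are not given in the sources used here. Symbols, coordinates and exon lengths came from GENCODE M21.

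Genes were kept by filterByExpr (minimum count 10), scaled with TMM and tested with edgeR 4.0.16 (R 4.3.3) by the robust quasi-likelihood F-test over all 12 libraries without covariates. P-values were Benjamini-Hochberg adjusted over 14813 genes, with a threshold of 0.05. Intervals are 95%, from the standard error and the test's degrees of freedom. DESeq2 1.42.0 and limma-voom (limma 3.58.1) were alternatives. The scripts were tested on simulated data first. Counts of reads amplified by PCR are not independent molecules, so depth speaks for counting error only.

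The genes, lists and tests were chosen with earlier results of these data known. All 10 genes are named, then up to 6 called genes of each list (with none called, the 2 most abundant), and the 3 genes nearest to each called member whose mean log2 CPM was 3 or more. Of the listed genes, Cdkn2a, Cdkn2b and some erythroid, endothelial and hair cell markers were not analysed here. The chi-square of counts between any pair of libraries was at least 20.9 per degree of freedom, so none was a copy of another. It cannot tell technical replicates from separate embryos, because it treats reads as independent molecules.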

Additional observations from a re-analysis of the deposited data

Results flagged for a closer look

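In 3 of the 20 group values of the 10 genes, a single library stood far outside the range of its 5 fellows. Chance flags about 1 in 20 groups when values are normally distributed. The flags fell on the scarce genes Ccnd2, Cdk6 and Cdkn2c, for which that rate need not hold. Control 4 had 8.82 CPM of Ccnd2 (119 counts), against 1.17 to 2.81 CPM in the other controls. The same library had 6.15 CPM of Cdk6 (83 counts), against 0.296 to 1.82 CPM. Isl1CKO 2 had 1.32 CPM of Cdkn2c (17 counts), against 0 to 0.317 CPM in the other Isl1CKO libraries.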

How the results depend on the processing

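The fold change of Ccnd1 stayed positive and past the threshold under all 24 alternatives, at 1.84 to 2.48 on the log2 scale. Cdkn1a did so in 23 of 24 and lost its call without Isl1CKO 2, 3 and 5, which left 1 called gene of the 10. In that setting 767 of 16222 genes tested were called, against 1511 of 14813 with all libraries. The direction reversed with the Schwann cell and macrophage levels as covariates for Cdk6 (-0.54) and Cdkn1b (0.0051), neither of which was called, and the cause was not tested. Cdk6 was not tested under a mean of at least 5 CPM. With 1 library left out, 2 genes of the 10 were called each time. The G1/S partners called were 1 to 3 with a library left out, and 1 without a filter on low counts, with the Y-linked level as a covariate or without Isl1CKO 2, 3 and 5. The exit-associated genes called were 2 to 5 and the S phase and mitosis genes 0 to 2 with a library left out, and DESeq2 called 3 of the latter. Replicate numbers showed no clear pairing of the samples, though such weak correlations cannot exclude it. Deviations of same-numbered libraries correlated at -0.056 to 0.152, and 2 of 6 Isl1CKO and 2 of 6 control libraries correlated best with their own number. With the replicate number as a block the log2 fold change was 2.10 for Ccnd1 and 0.90 for Cdkn1a (edgeR adjusted p of 0.00778 and 0.0126), and 2 of the 10 genes were called. Ccnd2, Cdk6 and Cdkn2c had too few counts in many libraries for their intervals to be narrow.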
